A study of Mus musculus with 44 samples.

Results

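The melanocyte pigment genes described here are Tyr, Tyrp1, Dct, Pmel, Mlana, Slc45a2, Oca2, Mc1r and Mitf. They were chosen by name as genes of melanin synthesis, with earlier results of these data known. The shares of all genes given beside their counts are therefore a description and not an independent test. All 9 were found among the 43411 genes of the data, and all 9 were among the 17037 genes with a mean normalized count above 3 over the mice. Gene expression was measured by RNA sequencing of back skin from 44 wild-type (WT) female C57Bl/6 mice, a black-coated inbred strain, whose injections began at 8 weeks of age. Saline was given to 10 mice. Daily subcutaneous bleomycin (100 µL at 1 U/mL), a cytotoxic drug that provokes skin fibrosis, was given to 10 mice for 2 weeks and to 10 mice for 4 weeks. The recovery groups received bleomycin for 4 weeks and were then left for 6 weeks (6 mice) or 10 weeks (8 mice). The recovery mice were therefore older at harvest, the harvest time of the saline mice is not given in the sources used here, and age cannot be told apart from treatment. Values are normalized counts, which are reads on a gene divided by 1 size factor per mouse.

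Melanocytes make melanin inside melanosomes, organelles that mature as pigment is laid down on a protein scaffold. In the back skin of mice these cells sit mainly in the hair follicles, where they pass pigment to the growing hair shaft. Melanin synthesis in the follicle is switched on while a hair grows and off when the follicle rests, so pigment genes and hair shaft genes rise and fall together in normal skin. In whole skin, fewer melanocytes and less RNA per melanocyte cannot be told apart.

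Each mouse had between 8509094 and 15285577 reads on genes. A list of 9 skin genes had a mean level of 14.30 to 15.28 over the mice on the log2(normalized count + 1) scale, and lists of 5 muscle genes (13.59 to 15.65) and 5 fat genes (9.04 to 11.55) were also present. Saline mouse 1 and mouse 2 of the 2-week bleomycin group had the lowest median correlation with the other mice of their group (r = 0.942 and 0.938 over genes), and counts are also given without them, over 42 mice. The skin, fat and muscle levels of saline mouse 1 (14.30, 9.83 and 13.59) were the lowest of the saline group. This mouse was also the highest of the saline group in all 8 members other than Mitf, and the part of these differences in the results was not tested.

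MITF, the master regulator of melanocytes, is known to bind an E-box with the letters CATGTG, and a preceding T gives the form TCATGTG. The 250 bases before the transcription start were searched for these letters on both strands in the RefSeq promoters (GRCm38.p6) of 6 members, Tyr, Tyrp1, Dct, Oca2, Mc1r and Mitf. The promoter set used held none for Pmel, Mlana and Slc45a2, so these members were not searched. Every TCATGTG site counts as a CATGTG site too. The letters TCATGTG were found in 4 of these members, at 5 sites, and in 3.25% of 32851 promoters. The sites are shown with 10 bases on either side, the motif in capitals and each site turned so that it reads TCATGTG. Starts are those of RefSeq, while the gene positions given further on are of GENCODE. By the GENCODE position of Tyrp1 (chr4:80834123-80851719) its site lies inside the gene.
Tyr, 22 to 16 bases before the start, chr7:87493518-87493544, minus strand: aaaaagttagTCATGTGctttgcagaa
Tyrp1, 47 to 41 bases before the start, chr4:80834156-80834182, plus strand: ggggagggagTCATGTGctgcctagta
Mc1r, 52 to 46 bases before the start, chr8:123407020-123407046, plus strand: cacatgcccaTCATGTGgccaccctca
Dct, 151 to 145 bases before the start, chr14:118052381-118052407, minus strand: gcacttagggTCATGTGctaacaaaga
Dct, 232 to 226 bases before the start, chr14:118052462-118052488, plus strand, opposite to the gene: tttattgggcTCATGTGtcccagccaa
The shorter form CATGTG, present in 12.3% of promoters, occurred once in Oca2, 186 to 181 bases before the start on the opposite strand. Mc1r held a second one 62 to 57 bases before its start, also on the opposite strand. The form CACGTG, present in 6.02% of promoters, was in none of these members, and none of these letters were in the 3 Mitf promoters.
The 250 bases before Tyr and Dct are printed whole to show where the sites lie relative to the start, which follows the last base. Capitals mark TCATGTG, or its complement CACATGA.
Tyr, chr7:87493513-87493762, minus strand: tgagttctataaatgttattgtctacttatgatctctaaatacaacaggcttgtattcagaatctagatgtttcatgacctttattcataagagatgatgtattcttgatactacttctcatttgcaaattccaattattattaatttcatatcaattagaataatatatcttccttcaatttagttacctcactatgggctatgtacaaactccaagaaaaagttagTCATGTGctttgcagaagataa
Dct, chr14:118052247-118052496, minus strand: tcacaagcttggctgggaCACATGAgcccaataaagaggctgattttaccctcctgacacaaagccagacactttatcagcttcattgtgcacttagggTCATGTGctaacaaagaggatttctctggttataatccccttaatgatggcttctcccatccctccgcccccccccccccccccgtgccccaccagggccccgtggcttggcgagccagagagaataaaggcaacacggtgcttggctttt
A match is a description of the letters only, and binding was not measured.

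In 8 members the group medians took the same outline: saline was highest, 2 weeks of bleomycin lowest, and 6 weeks of recovery next to lowest. The medians at 4 weeks of bleomycin and 10 weeks of recovery lay between, with 10 weeks of recovery above 4 weeks of bleomycin in 5 of the 9 members. Mitf alone departed from this outline, with its lowest median at 6 weeks of recovery. Per kilobase of exon, the saline medians were ordered Pmel (221 normalized counts per kilobase), Tyrp1 (179), Dct (127), Mlana (92.3), Mitf (74.3), Tyr (18.3), Slc45a2 (13.4), Oca2 (9.88) and Mc1r (9.56). At 2 weeks of bleomycin Mitf (66.3) stood above Dct (58.8), Tyrp1 (51.7), Pmel (47.7) and Mlana (15.4) on the same scale.

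**Figure D1:**
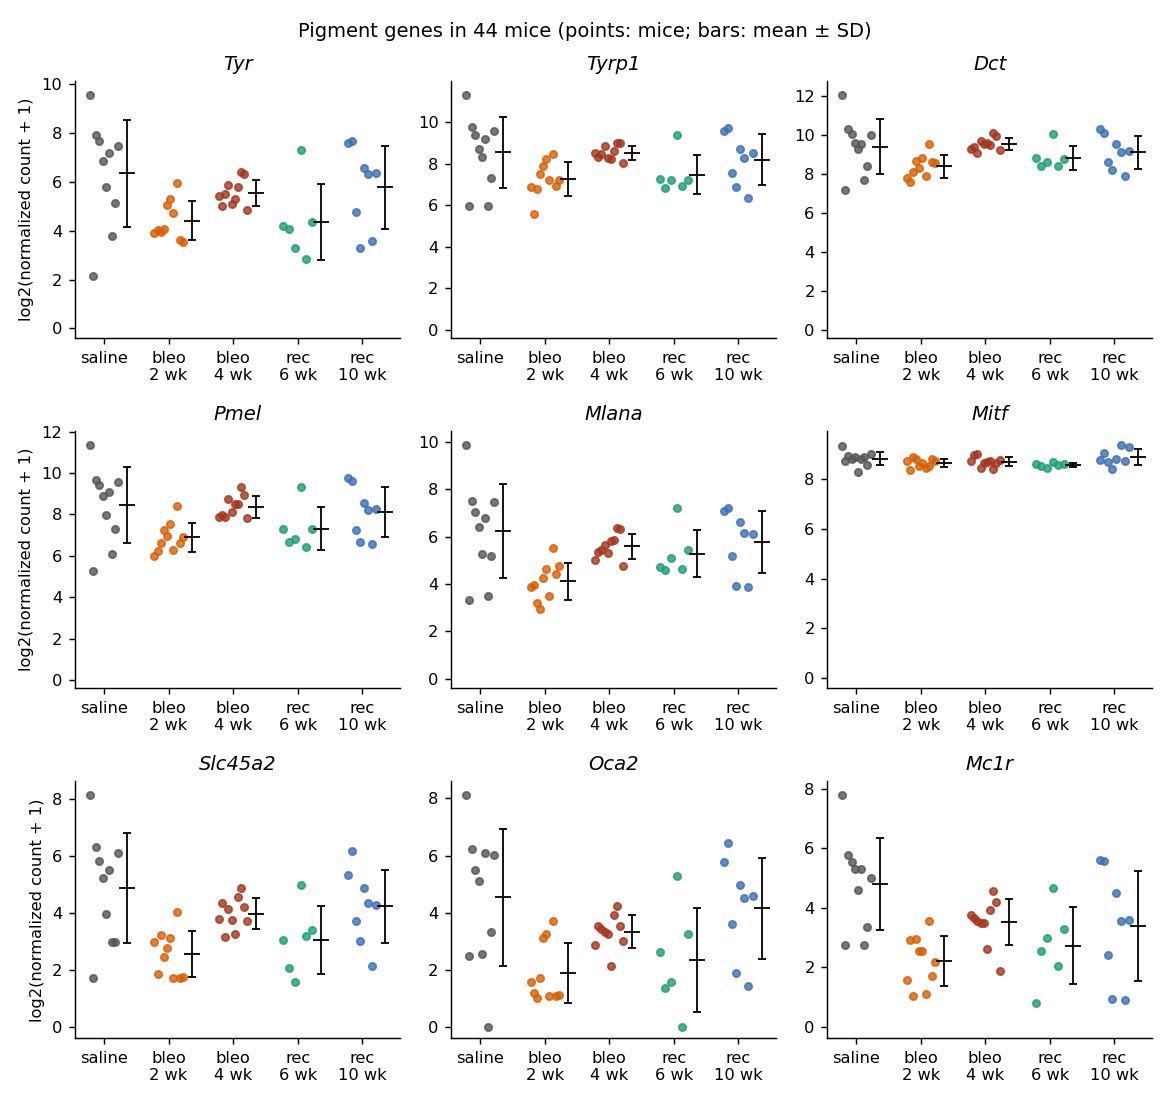
Level of each of the 9 pigment genes in each mouse, as log2(normalized count + 1), by group (bleo, bleomycin; rec, recovery; wk, weeks); points are mice and black bars are the mean ± SD. In 7 genes, all but Mc1r and Mitf, the saline mice are spread most widely, the 2-week bleomycin mice lie low in all but Mitf, and Mitf is nearly level across groups.

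The test between groups was limma's moderated test of log2(normalized count + 1), fitted to all 5 groups at once, with Benjamini-Hochberg adjustment over the 17037 genes. A gene was called when its adjusted p was below 0.05 and its fold change above 1.5 in either direction. On this scale the fold changes of genes with few reads come out too small. The 4 comparisons with saline share the same 10 saline mice, so their values stand side by side and are not independent.

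The genes of the melanin-making enzymes fell at 2 weeks of bleomycin. Tyrosinase, encoded by Tyr (ENSMUSG00000004651.5, chr7:87424771-87493512 of GRCm38, minus strand), carries out the first and rate-limiting steps of melanin synthesis. Its normalized count (lowest, median, highest) was 3.43, 130 and 756 with saline, 10.6, 15.7 and 61 in the 2-week and 28, 43.4 and 83.2 in the 4-week bleomycin group, then 6.15, 16.8 and 158 in the 6-week and 8.91, 79.9 and 206 in the 10-week recovery group. Every 2-week mouse was below the saline mean of 174, but the groups overlapped because saline mice 2 and 8 were also low (3.43 and 12.6). The log2 fold change of Tyr against saline was -1.94 (SE 0.62, limma adjusted p = 0.0126), a 3.83-fold fall.
Tyrp1 (ENSMUSG00000005994.12, chr4:80834123-80851719, plus strand) encodes tyrosinase-related protein 1, a melanosomal enzyme of eumelanin synthesis. Counts of Tyrp1 on this scale were 61.7, 505 and 2546 with saline, 46.8, 146 and 359 in the 2-week and 261, 362 and 518 in the 4-week bleomycin group, then 114, 150 and 665 in the 6-week and 80, 342 and 856 in the 10-week recovery group. At 2 weeks 1 of 10 mice was below every saline mouse, and the log2 fold change was -1.28 (SE 0.47, limma adjusted p = 0.0304).
Dct (ENSMUSG00000022129.3, chr14:118012790-118052244, minus strand) encodes dopachrome tautomerase, the enzyme that acts on dopachrome, and is on in melanocyte precursors before pigment is made. Its normalized count was 144, 746 and 4139 with saline, 189, 346 and 741 in the 2-week and 538, 724 and 1102 in the 4-week bleomycin group, then 332, 405 and 1031 in the 6-week and 237, 562 and 1255 in the 10-week recovery group. No 2-week mouse was below the lowest saline mouse, and 9 of 10 were below the mean of the saline mice on the log2 scale. The log2 fold change at 2 weeks was -1.01 (SE 0.36, limma adjusted p = 0.0255), the smallest fall among the called members. Dct overlaps 4930435M08Rik on the opposite strand, and the strand setting of the counting is not given in the sources used here.

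Genes of the scaffold and maturation of the melanosome fell as well. Pmel (ENSMUSG00000025359.9, chr10:128704195-128720238, plus strand) encodes the protein that forms the fibrils on which melanin is laid down. For Pmel the normalized count was 37.7, 507 and 2589 with saline, 63.4, 109 and 337 in the 2-week and 227, 316 and 645 in the 4-week bleomycin group, then 84.1, 133 and 630 in the 6-week and 93.6, 297 and 854 in the 10-week recovery group. All 10 mice at 2 weeks were below the saline mean of 637, with a log2 fold change of -1.57 (SE 0.49, limma adjusted p = 0.0105). Pmel overlaps Cdk2 and Dgka on the opposite strand.
Mlana (ENSMUSG00000024806.3, chr19:29697824-29708634, plus strand) encodes MART-1, a melanosome protein needed for PMEL to mature. Mlana had normalized counts of 9.14, 97.6 and 926 with saline, 6.73, 16.2 and 44.7 in the 2-week and 26.2, 45.7 and 81.6 in the 4-week bleomycin group, then 23.2, 29.6 and 147 in the 6-week and 13.6, 69.9 and 146 in the 10-week recovery group. At 2 weeks 2 of 10 mice were below every saline mouse, and the log2 fold change was -2.13 (SE 0.53, limma adjusted p = 0.00129).

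The membrane transporter genes fell too, from low levels. Slc45a2 (ENSMUSG00000022243.10, chr15:11000721-11029233, plus strand) and Oca2 (ENSMUSG00000030450.9, chr7:56239760-56536518, plus strand) encode melanosome transport proteins that keep the organelle's pH fit for tyrosinase. The normalized count of Slc45a2 was 2.28, 40 and 277 with saline, 2.27, 5.11 and 15.3 in the 2-week and 7.82, 14.6 and 28 in the 4-week bleomycin group, then 1.98, 7.75 and 30.8 in the 6-week and 3.4, 18.9 and 70.5 in the 10-week recovery group. That of Oca2 was 0, 39.1 and 275 with saline, 1.03, 1.64 and 12 in the 2-week and 3.41, 9.47 and 17.9 in the 4-week bleomycin group, then 0, 3.54 and 38 in the 6-week and 1.7, 22.6 and 86.7 in the 10-week recovery group. At 2 weeks 7 of 10 mice had 3 or fewer Oca2 reads and 4 of 10 had 3 or fewer Slc45a2 reads, against 1 of 10 saline mice for each gene. The log2 fold changes at 2 weeks were -2.31 for Slc45a2 (SE 0.53, limma adjusted p = 0.000582) and -2.65 for Oca2 (SE 0.69, adjusted p = 0.00222). Oca2 overlaps Gm44506 on the opposite strand.

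Mc1r (ENSMUSG00000074037.3, chr8:123407107-123410744, plus strand) encodes the receptor through which melanocyte-stimulating hormone turns on dark pigment. Mc1r had normalized counts of 5.71, 34.8 and 221 with saline, 1.03, 4.15 and 10.9 in the 2-week and 2.62, 11.3 and 22.5 in the 4-week bleomycin group, then 0.73, 5.86 and 24.7 in the 6-week and 0.851, 10.8 and 47.3 in the 10-week recovery group. At 2 weeks 7 of 10 mice were below every saline mouse, more than for any other member, though 5 of those 10 mice had 3 or fewer reads. The lowest saline mouse had only 5 reads itself. Mice 5 and 6 of the 2-week group, also with 5 reads, were below it only through the size factor. The log2 fold change at 2 weeks was -2.61 (SE 0.56, limma adjusted p = 0.000225). Mc1r overlaps Gm20388 on the same strand and Gm38092 on the opposite one, so its count is uncertain.
Mitf (ENSMUSG00000035158.13, chr6:97807052-98021349, plus strand) encodes the transcription factor that turns on the other pigment genes in melanocytes, and other cell types such as mast cells also use it. Its normalized count was 310, 460 and 639 with saline, 333, 411 and 470 in the 2-week and 337, 413 and 518 in the 4-week bleomycin group, then 345, 383 and 408 in the 6-week and 339, 439 and 656 in the 10-week recovery group. Against saline its log2 fold change was -0.18 (SE 0.10, limma adjusted p = 0.165) at 2 weeks, -0.12 (SE 0.10, adjusted p = 0.349) at 4 weeks, -0.25 (SE 0.12, adjusted p = 0.159) at 6 weeks of recovery and 0.06 (SE 0.11, adjusted p = 0.845) at 10 weeks. It was called in no comparison. Mitf overlaps Gm15531 on the opposite strand.

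At 2 weeks of bleomycin 8 of the 9 members were therefore lower than with saline, all but Mitf, and 0 were higher. Over all genes 7.43% were called lower in this comparison. The count was 8 by edgeR (7.48% of all genes) and 8 by DESeq2 (7.74%) as well. The median log2 fold change was -1.94 for the members and 0.00 for all genes tested. In a fit of these 20 mice alone 6 members were called lower, without Tyrp1 (limma adjusted p = 0.084) and Dct (adjusted p = 0.0852), against 7.06% of all genes. Over 42 mice 5 members were called lower, against 7.05% of genes. Tyrp1, Dct and Pmel then had log2 fold changes of -0.78 (limma adjusted p = 0.169), -0.63 (adjusted p = 0.132) and -1.18 (adjusted p = 0.0505). Leaving out saline mouse 1 or saline mouse 3 ended the calls of both Tyrp1 and Dct. With each mouse of these groups left out in turn, their log2 fold changes came as near to 0 as -0.97 and -0.72. Tyrp1 was also no longer called without saline mouse 4, 7 or 10 or mouse 2 of the 2-week group (adjusted p up to 0.0874 over all these).

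At 4 weeks of bleomycin 0 members were called against saline by limma, where 17.9% of all genes were called in either direction (7.37% lower). Only Mc1r had an unadjusted p below 0.05 (log2 fold change -1.30, SE 0.56, adjusted p = 0.0627). The log2 fold changes of Tyrp1, Dct and Pmel were -0.02, 0.13 and -0.10 (SE 0.47, 0.36 and 0.49), and those of Tyr, Mlana, Slc45a2 and Oca2 were -0.79, -0.65, -0.89 and -1.21 (SE 0.62, 0.53, 0.53 and 0.69). Tests on whole reads gave another count: edgeR called 5 members lower (8.01% of all genes) and DESeq2 5 (8.29%), each naming Tyr, Mlana, Slc45a2, Oca2 and Mc1r. By edgeR the log2 fold changes of these genes ran from -2.50 for Oca2 to -1.73 for Mlana. These tools compare means of counts, while limma here compares means of log2 values. Leaving out saline mouse 2 or saline mouse 8, both low in these genes, gave 2 members called lower by limma, and leaving out saline mouse 9 gave 1, with Mc1r among them each time (adjusted p down to 0.0278). Mice at 4 weeks were close to each other: the SD of the log2 level was 0.32 to 0.77 in the 8 members other than Mitf, the smallest of the 5 groups in each of them, against 1.39 to 2.4 with saline.

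Between 2 and 4 weeks of bleomycin the same 8 members were higher at 4 weeks by 1.14 to 1.48 on the log2 scale, and none of these differences was called in the fit of all 5 groups. The nearest was Dct, at 1.14 (SE 0.36, limma adjusted p = 0.0518), followed by Pmel at 1.48 (SE 0.49, adjusted p = 0.0663). An unadjusted p below 0.05 was reached by 7 members, edgeR called 0 and DESeq2 called 1, and limma called 1.49% of all genes higher. In a fit of these 20 mice alone, whose spread does not include the saline mice, 8 of 9 members were called higher, against 1.22% of all genes. There the adjusted p was lowest for Dct (0.003) and highest for Mc1r (0.0391) among the called members, and Mitf differed by 0.05 (adjusted p = 0.763). For Tyrp1, Pmel, Mlana, Slc45a2 and Mc1r, 5 of 10 mice at 4 weeks were above every mouse at 2 weeks.

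After 6 weeks of recovery only Mc1r was called against saline, with a log2 fold change of -2.10 (SE 0.64, limma adjusted p = 0.0321), and 1.71% of all genes were called lower. Every recovery mouse was below the saline mean for Mc1r, and 3 of 6 were below every saline mouse. These were recovery mice 1, 2 and 5, with 1, 6 and 3 reads, against 5 reads in the lowest saline mouse. Mouse 2 was thus below it only through the size factor. The call was lost over 42 mice (log2 fold change -1.77, adjusted p = 0.0575). It was also lost when any 1 of saline mice 1, 3 and 4 or of recovery mice 1, 2, 3 and 5 was left out (adjusted p up to 0.115). The log2 fold changes of Tyr, Slc45a2 and Oca2 were -2.0, -1.81 and -2.19 (SE 0.72, 0.62 and 0.80), with adjusted p of 0.0683, 0.0535 and 0.0738. Without recovery mouse 4, which had the highest level of the group in all 8 members other than Mitf, 4 members were called lower. Without saline mouse 2 or 8 the count was 4 as well, without saline mouse 6 it was 3, and without saline mouse 9 it was 2. DESeq2 called 7 members lower (2.65% of all genes) and edgeR 4 (2.06%).
Set against 4 weeks of bleomycin, 0 members were called after 6 weeks of recovery, where 11.9% of all genes were called in either direction, and edgeR and DESeq2 also called 0. No member reached an unadjusted p below 0.05. In a fit of these 16 mice alone Tyrp1, Dct and Pmel were called lower (log2 fold changes -1.05, -0.70 and -1.06, limma adjusted p = 0.0078, 0.0119 and 0.0208), against 8.02% of all genes.
After 10 weeks of recovery 0 members were called against saline (3.05% of all genes) and 0 against 6 weeks of recovery (0.088%), by limma, edgeR and DESeq2 alike. Unadjusted p-values below 0.05 were found for Mc1r in the former comparison (log2 fold change -1.44, SE 0.59, adjusted p = 0.151) and for Oca2 and Mitf in the latter (1.80, SE 0.84, adjusted p = 0.386, and 0.31, SE 0.12, adjusted p = 0.319). The SD of the log2 level at 10 weeks was 0.86 to 1.86 in the 8 members other than Mitf. Mouse 7 was lowest in 7 of these members, and mouse 2 highest in 5.

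Hair growth itself was not measured, and was read from the RNA of keratin genes of the growing follicle. The hair keratin score of a mouse was the mean log2(normalized count + 1) over 8 genes of the inner root sheath and 13 of the hair shaft. The score (lowest, median, highest) was 4.78, 9.14 and 12.12 with saline, 1.49, 1.61 and 5.06 in the 2-week and 1.72, 1.99 and 6.95 in the 4-week bleomycin group, then 2.07, 7.41 and 10.84 in the 6-week and 4.52, 10.65 and 11.54 in the 10-week recovery group. Saline mice thus differed widely from each other in this score, as they did in the RNA of the pigment genes. In the score, 9 of 10 mice at 2 weeks and 8 of 10 at 4 weeks lay below the lowest saline mouse.
All 8 inner root sheath genes and all 13 shaft genes were called lower than saline at both 2 weeks (7.43% of all genes) and 4 weeks (7.37%) of bleomycin. Krt25, a keratin of the inner root sheath, had a normalized count of 513, 10024 and 54378 with saline against 0, 2.27 and 504 in the 2-week group (log2 fold change -10.51, SE 1.25, limma adjusted p = 4.27e-09). Krt35, a keratin of the hair shaft, fell by 8.02 (SE 0.96, adjusted p = 4.93e-09) at 2 weeks and by 7.13 (SE 0.96, adjusted p = 7.79e-08) at 4 weeks on the log2 scale. The median log2 fold changes of these lists were -8.18 and -7.14 at 2 weeks and -7.02 and -6.23 at 4 weeks. From 2 to 4 weeks 0 genes of either list were called by limma in either direction, with medians of 1.18 and 0.72. Between 4 weeks of bleomycin and 6 weeks of recovery 7 of 8 inner root sheath genes and 9 of 13 shaft genes were called higher, against 4.8% of all genes, while 0 of the 9 pigment genes were.
A further list of 15 genes of the growing follicle was also low under bleomycin. Of these, 13 were called lower than saline in the 2-week group (7.43% of all genes) and 14 in the 4-week group (7.37%). The count was 4 in the 6-week recovery group (1.71%) and 0 in the 10-week recovery group (0.998%). The largest falls at 2 weeks were those of Padi3 and S100a3 (log2 fold changes -6.69 and -6.04, SE 0.96 and 0.84). Between 4 weeks of bleomycin and 6 weeks of recovery 3 of the 15 were called higher (4.8% of all genes), Hoxc13, Padi3 and S100a3, and 0 lower. Among the 15, Msx1, a homeobox gene of the hair matrix, had log2 fold changes of -2.68 (SE 0.32, limma adjusted p = 6.02e-09) and -2.33 (SE 0.32, adjusted p = 1.38e-07) against saline at 2 and 4 weeks.

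**Figure D2:**
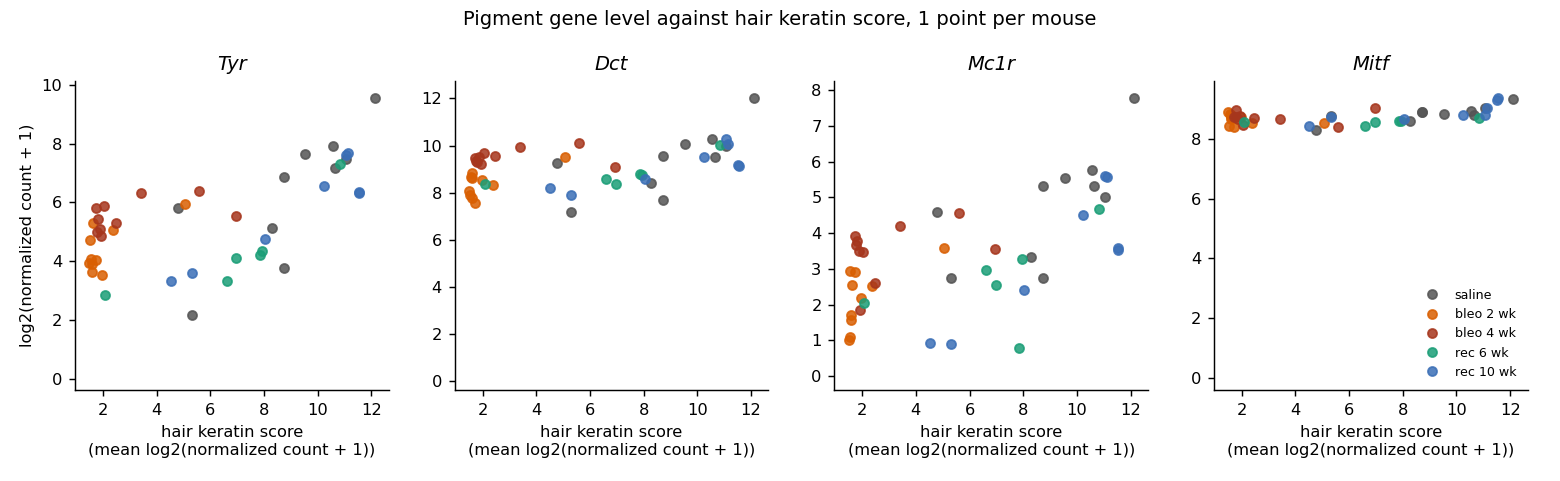
Level of Tyr, Dct, Mc1r and Mitf in each of the 44 mice (vertical, log2(normalized count + 1)) against the hair keratin score of the mouse (horizontal, mean log2(normalized count + 1) over 21 genes), coloured by group. Among saline and 10-week recovery mice Tyr rises with the score; most 4-week bleomycin mice lie at scores near 2 with Tyr above that of most 2-week mice.

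Within groups, the members followed the hair keratin score in saline and 10-week recovery mice. Over the 10 saline mice Pearson's r ranged from 0.67 (Mc1r) to 0.82 (Mitf), and 8 of 9 relations passed an adjusted p of 0.05 over the 45 relations tested (permutation tests, two-sided). For Tyr r was 0.77 (p = 0.0103, adjusted p = 0.0232) and Spearman's rho 0.82 (p = 0.00605, adjusted p = 0.0172, permutation test), and leaving out the 2 mice with scores farthest from the median gave an r of 0.82. For Mc1r the adjusted p of r was 0.0553, and its rho of 0.76 had an adjusted p of 0.0362 (permutation test). Without saline mouse 1, r was 0.55 to 0.77 and 2 of 9 relations passed, 5 by rho.
Over the 8 mice at 10 weeks of recovery r ranged from 0.79 to 0.93 and all 9 passed by r (exact permutation test). Only Mitf also passed by rho (0.95, exact p = 0.00114, adjusted p = 0.00615), and rho of the others was 0.57 to 0.62. Without the mice farthest from the median (4 and 7, with the lowest scores) r fell to between 0.48 and 0.75, so the relation rests much on these mice.
Among the 10 mice at 4 weeks of bleomycin r ranged from -0.12 (Slc45a2) to 0.45 (Tyr), and 0 of 9 relations passed by r or rho. At 2 weeks mouse 8 stood apart in its score (5.06), and in the other 9 mice, whose scores spanned 1.49 to 2.37, r ranged from -0.33 to 0.49 and 0 of 9 passed (exact permutation tests). Mouse 8 was also the highest of the 2-week group in all 8 members other than Mitf. At 6 weeks of recovery the scores fell into separate clusters of fewer than 6 mice and no r is given. Whether the relation differed between groups was not tested.
Over the 28 mice of the saline, 4-week bleomycin and 10-week recovery groups, taken as deviations from their group means, r ranged from 0.63 (Dct) to 0.75 (Tyr) and all 9 relations passed by r and rho (permutation within groups, adjusted p of r at most 0.0035).

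With the hair keratin score added to the limma fit as a covariate, the slopes were 0.25 (Dct) to 0.55 (Oca2) log2 units per unit of score in the 8 members other than Mitf, and 0.05 (SE 0.01) for Mitf. At 2 weeks of bleomycin 0 members were then called against saline (11.1% of all genes in either direction), and the signs of all 8 turned to higher, from 0.09 (Mc1r, SE 0.64, and Slc45a2, SE 0.64) to 1.56 (Tyr, SE 0.61, limma adjusted p = 0.0697). Over 42 mice the value for Mc1r was -0.02. Since 9 of the 10 mice at 2 weeks had scores below every saline mouse, these values too extend the slope beyond the saline scores, and 0 of 9 relations passed within the 2-week group.
At 4 weeks 6 members were called higher than saline at equal score, against 7.62% of all genes: Tyr by 2.25 (SE 0.57, adjusted p = 0.00304), Pmel by 2.12 (SE 0.50, adjusted p = 0.00142), Oca2 by 2.08 (SE 0.66, adjusted p = 0.0185), Tyrp1 by 1.99 (SE 0.50, adjusted p = 0.00263), Mlana by 1.78 (SE 0.52, adjusted p = 0.0106) and Dct by 1.60 (SE 0.39, adjusted p = 0.0022). Since 8 of the 10 mice at 4 weeks had scores below every saline mouse, these values extend the slope beyond the saline scores, and 0 of 9 relations passed within the 4-week group itself.
From 2 to 4 weeks, where both groups have low scores, 2 members were called higher with the covariate (1.63% of all genes): Dct by 0.92 (SE 0.28, limma adjusted p = 0.0438) and Pmel by 1.14 (SE 0.36, adjusted p = 0.0472). Between 4 weeks of bleomycin and 6 weeks of recovery 8 members were called lower at equal score, all but Mitf, by 1.71 (Dct) to 3.28 (Tyr) log2 units, against 8.04% of all genes. Only 3 mice of the 4-week group had scores above 3, and the same extension applies. At 10 weeks of recovery Mc1r was called lower than saline at equal score (-1.51, SE 0.45, limma adjusted p = 0.0308; 1.23% of all genes), and over 42 mice it was not (-1.30, adjusted p = 0.0507).

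**Figure D3:**
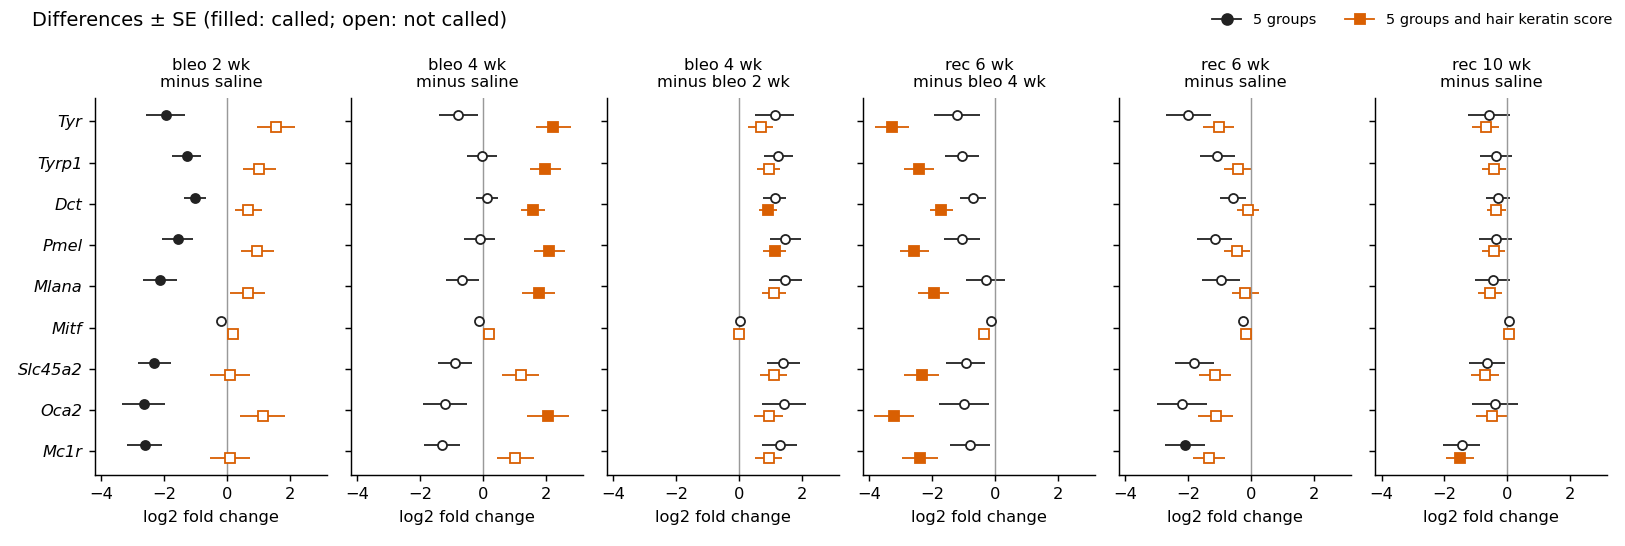
Log2 fold change ± SE of the 9 pigment genes in 6 comparisons, from the limma fit of all 5 groups (black circles) and from the same fit with the hair keratin score as covariate (orange squares); filled symbols were called. At 2 weeks of bleomycin the 8 filled circles lie below 0 and the squares at or above it; at 4 weeks the squares of 6 genes are filled and above 0.

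The 8 pigment genes other than Mitf moved together from mouse to mouse. With group means taken off, the 28 pairs among them correlated with an r of 0.79 to 0.98 over the 44 mice (median 0.90, rho 0.75 to 0.97). Each of these pairs had a p of 5.00e-05, the smallest that 20000 permutations within groups can give. Adjusted over the 36 pairs, this permutation p was 6.43e-05. The closest pair was Dct and Pmel. Pairs with Mitf had an r of 0.29 (Mc1r) to 0.40 (Slc45a2) and a rho of 0.15 to 0.33, with adjusted p up to 0.116 for r and 0.371 for rho. Of these 8 pairs, 3 passed an adjusted p of 0.05 by r, those with Slc45a2 (0.0268), Oca2 (0.0413) and Mlana (0.0478), and only the pair with Slc45a2 also passed by rho (0.0456), all by permutation within groups. Leaving out the 2 mice farthest from the median left r at 0.74 or more in the former pairs and at 0.19 to 0.27 in the latter.

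**Figure D4:**
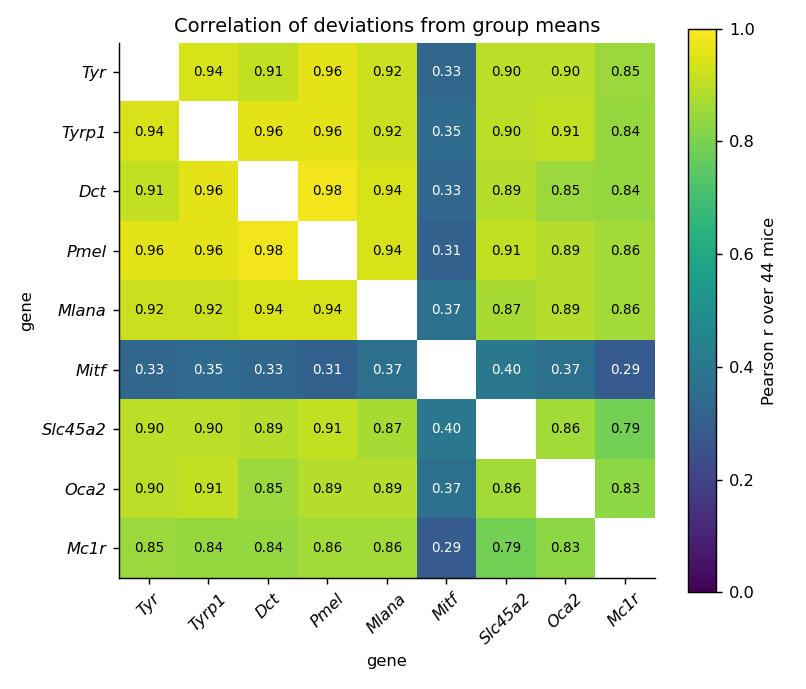
Pearson r between each pair of pigment genes over the 44 mice, after the group means of log2(normalized count + 1) were taken off; both axes list the genes and colour gives r. All pairs without Mitf lie at 0.79 or above, and the Mitf row and column lie at 0.40 or below.

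Of the genes whose level was most like that of Tyr over the 44 mice, many were members: Pmel (r = 0.95), Tyrp1 (0.94), Slc45a2 (0.92), Oca2 (0.92), Mlana (0.91), Dct (0.89) and Mc1r (0.87). Ranked by Pearson r among the genes tested, the 10 closest genes outside the members were Trpm1 (r = 0.94), Slc24a4 (0.93), Slc24a5 (0.93), Syt4 (0.90), Gpr143 (0.88), Slc39a8 (0.86), Tspan10 (0.86), Cacna1i (0.85), Slc30a1 (0.85) and Slc7a1 (0.84). With group means taken off, Adamts18 (0.89), Dlx4 (0.89), Msx2 (0.88), Mfsd2a (0.88) and Ctps (0.88) came in behind Trpm1 (0.93), Slc24a5 (0.93) and Slc24a4 (0.92), followed by Slc39a8 (0.88) and Syt4 (0.87). With group and hair keratin score both taken off, Trpm1 (0.86), Slc24a5 (0.85), Tspan10 (0.80), Slc24a4 (0.80), Gpr143 (0.77) and Syt4 (0.76) led again. Mitf ranked 1658, 2637 and 11726 by these measures, with r of 0.44, 0.33 and -0.12. These ranks are over mice that share libraries and depth across genes, and carry no test.

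Of 22 other genes of the melanosome, 4 were called lower at 2 weeks of bleomycin (7.43% of all genes) and 0 higher (9.3%). Their median log2 fold change was -0.00. The 4 called lower were Trpm1, a cation channel of melanocytes (-2.12, SE 0.57, limma adjusted p = 0.00271), Slc24a5, a melanosome ion exchanger (-1.92, SE 0.60, adjusted p = 0.00991), Tspan10 (-1.46, SE 0.46, adjusted p = 0.0106) and Gpr143, the ocular albinism receptor (-1.75, SE 0.56, adjusted p = 0.0114). The normalized count of Trpm1 was 19.5, 313 and 1876 with saline, 20.8, 49.1 and 121 at 2 weeks and 64.5, 91 and 199 at 4 weeks, with overlap between all 3 groups. At 4 weeks 1 of the 22 genes was called higher than saline (10.5% of all genes). This was Gpnmb (0.82, SE 0.24, limma adjusted p = 0.0056), which macrophages also make. The macrophage list, which holds Gpnmb too, had 6 of 9 genes called higher (10.5% of all genes) and 1 lower (7.37%) in that comparison. At 6 weeks of recovery 1 of the 22 genes was called lower (1.71% of all genes). This was Atp7a, a copper transporter that loads tyrosinase (-1.0, SE 0.32, limma adjusted p = 0.0417).
Of 8 genes listed under melanosome transport, 2 were called lower at 2 weeks (7.43% of all genes). These were Mlph, the adaptor that links melanosomes to myosin (-0.66, SE 0.20, limma adjusted p = 0.00857), and Slc24a4 (-2.30, SE 0.71, adjusted p = 0.00938). Slc24a4, an ion exchanger gene kept on this list, was near the floor at 2 weeks, with a median of 1.81 normalized counts and 4 mice at 0. Mlph was then higher at 4 than at 2 weeks (1.04, SE 0.20, adjusted p = 0.00139), with normalized counts of 65.9, 84.2 and 111 at 4 weeks against 15.6, 42.8 and 64.3 at 2 weeks, groups that did not overlap. Over all genes 0.106% were higher with groups apart there. Rab27a, the partner of Mlph on the melanosome, differed from saline by -0.13 (SE 0.07, adjusted p = 0.152) at 2 weeks and by -0.31 (SE 0.07, adjusted p = 0.000729) at 4 weeks, under the fold threshold. Myo5a, the motor, was lower at 6 weeks of recovery than at 4 weeks of bleomycin (-0.76, SE 0.12, adjusted p = 1.94e-06).

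The genes of the melanocyte lineage moved in both directions. Of 12 lineage genes, 2 were called lower at 2 weeks of bleomycin (7.43% of all genes) and 0 higher (9.3%). Ednrb, the endothelin receptor of melanocyte precursors, was lower at 2 weeks (-1.34, SE 0.24, limma adjusted p = 1.26e-05), at 4 weeks (-1.39, SE 0.24, adjusted p = 6.76e-06) and at 6 weeks of recovery (-1.24, SE 0.27, adjusted p = 0.00249). Its normalized count was 228, 489 and 1245 with saline and 143, 186 and 302 at 4 weeks, so the groups overlapped. Irf4, which acts with MITF on Tyr and is also an immune cell gene, was called lower in all 4 comparisons with saline, by 0.64 to 1.04 log2 units.
Sox10, needed by melanocytes and Schwann cells, was called higher at 4 weeks (0.69, SE 0.15, limma adjusted p = 0.000259), at 6 weeks of recovery (0.93, SE 0.17, adjusted p = 0.000451) and at 10 weeks (0.60, SE 0.16, adjusted p = 0.0185). Its normalized count was 84.5, 155 and 169 with saline and 208, 298 and 343 at 6 weeks of recovery, groups that did not overlap. Over all genes 1.41% were higher with groups apart there. The Schwann cell list, which holds Sox10 and Foxd3, had 10 of 11 genes called higher than saline at 4 weeks (10.5% of all genes), 10 at 6 weeks of recovery (3.33%) and 7 at 10 weeks (2.05%). Foxd3, a factor of the neural crest, was called higher at 4 weeks too (0.99, SE 0.21, limma adjusted p = 0.000236). The mean level of the Schwann cell list was 6.98 to 8.06 with saline, 8.17 to 8.78 at 4 weeks and 8.18 to 8.82 at 6 weeks of recovery, and its part in the Sox10 result was not tested.
Kit, the receptor for stem cell factor on melanocytes and mast cells, was higher at 4 than at 2 weeks (0.77, SE 0.16, limma adjusted p = 0.00248) and differed from saline by 0.46 (SE 0.16, adjusted p = 0.0188) at 4 weeks, under the fold threshold. Of 10 mast cell genes, Kit included, 9 were called higher than saline at both 2 weeks (9.3% of all genes) and 4 weeks (10.5%), all but Kit. Their mean level was 6.09 to 6.94 with saline, 7.41 to 8.37 at 2 weeks and 8.04 to 8.85 at 4 weeks, and its part in Kit and Mitf was not tested. Pax3, a factor of melanoblasts, differed from saline by -0.12 (SE 0.17, adjusted p = 0.608) at 2 weeks and 0.26 (SE 0.17, adjusted p = 0.241) at 4 weeks.

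Of 12 signals that act on melanocytes, 11 could be tested, and 4 were called lower (7.43% of all genes) and 1 higher (9.3%) at 2 weeks. Edn3, an endothelin that drives melanocyte growth, was lower at 2 weeks (-1.20, SE 0.20, limma adjusted p = 3.66e-06) and at 4 weeks (-0.69, SE 0.20, adjusted p = 0.00489). Its normalized count was 37.7, 56 and 99 with saline, 10.4, 30.3 and 38.6 at 2 weeks and 27.5, 32.4 and 56.7 at 4 weeks, so that the highest 2-week value only just passed the lowest saline value. Kitl, the ligand of KIT, differed from saline by 0.05 (SE 0.12, adjusted p = 0.78) at 2 weeks and 0.18 (SE 0.12, adjusted p = 0.234) at 4 weeks.
Asip, the gene of the agouti protein that opposes MC1R in the follicle, was called higher at 4 weeks (1.13, SE 0.35, limma adjusted p = 0.00841). Its levels were low, with normalized counts of 0, 4.1 and 9.14 with saline and 3.2, 10.2 and 13.7 at 4 weeks. Only RNA was measured, and whether these black-coated mice make working agouti protein was not tested. Pomc, the precursor of melanocyte-stimulating hormone, stayed under the mean of 3 needed for a test, with a highest value of 5.12 normalized counts in any mouse. The other signals with the largest statistics were Wnt10b, a hair growth signal (-1.87, SE 0.25, adjusted p = 7.81e-08 at 2 weeks and -1.95, SE 0.25, adjusted p = 2.95e-08 at 4 weeks), Hgf, a growth factor for melanocytes among other cells (1.28, SE 0.18, adjusted p = 2.96e-07 and 1.41, SE 0.18, adjusted p = 3.97e-08), and Corin, a protease of the dermal papilla (-2.42, SE 0.45, adjusted p = 3.26e-05 and -1.69, SE 0.45, adjusted p = 0.00261).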

How the data were processed

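Total RNA from skin was made into stranded mRNA libraries. The authors aligned reads to mm10 with STAR 2.4.0, counted them per gene and divided them by DESeq2 1.12.3 size factors, and the deposited signal is this table of normalized counts. No source used here names the counter, the annotation or the strand setting. Symbols matched 42929 IDs (98.9%), and positions and exon lengths are of GENCODE on GRCm38.

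Each value was a whole multiple of 1 step per mouse, which gave whole reads (100% within 0.01 reads). Tests used limma 3.58.1 (R 4.3.3) with the prior variance following mean expression, a pseudocount of 1 and a mean above 3. Alternatives were edgeR 4.0.16 and DESeq2 1.42.0 on the recovered reads, a pseudocount of 0.1, other filters and scalings, fits of the groups compared alone, a replicate block, the hair keratin score as covariate and leaving out mice. The covariate over 42 mice was added after the data were seen. All 3 tools were also run on simulated data with the same dispersion in every gene and group. Those data lack the unequal spread of the pigment genes, so they do not test the calls made here. Correlations used Python 3.11.15 with scipy 1.17.1, numpy 2.4.6 and pandas 2.3.3, 100000 permutations where not exact, and matplotlib 3.10.9 drew the plots.

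The 9 members and the gene lists were chosen with earlier results of these data known. The genes named were the members, 13 fixed genes of pigment cells and, per list and comparison, up to 3 others with the largest statistic among those called. Each mouse is a separate animal. Histology was not analysed here.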

Additional observations from a re-analysis of the deposited data

Results flagged for a closer look

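In 50 sets of values, each of 9 members or the hair keratin score in 1 group, 6 had a mouse whose gap to its nearest neighbour was too large for the group's range by Dixon's criterion, where chance gives about 1 in 20. Mouse 4 of the 6-week recovery group stood above the other 5 mice in 5 members, with normalized counts of 158 for Tyr, 665 for Tyrp1, 1031 for Dct, 630 for Pmel and 147 for Mlana. Its hair keratin score of 10.84 was the highest of that group. Mouse 8 of the 2-week bleomycin group stood apart in its hair keratin score of 5.06, and had the highest level of its group in 8 members. These genes move together, so the flags of mouse 4 are not independent of each other.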

How the results depend on the processing

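The number of members called depended on the setting. With 2 weeks of bleomycin against saline 8 became 5 over 42 mice and 0 with the hair keratin score as covariate (0 over 42 mice), and 6 to 8 when 1 mouse was left out. With 4 weeks against saline 0 became 1 with only the groups compared, 5 with edgeR, 5 with DESeq2 and 6 with the covariate (6 over 42 mice), and 0 to 2 without 1 mouse. With 6 weeks of recovery against saline 1 became 0 without a filter, with only the groups compared, over 42 mice and with the covariate (0 over 42 mice), 2 with quantile normalization, 2 with the replicate block, 4 with edgeR and 7 with DESeq2, and 0 to 4 without 1 mouse. At 10 weeks of recovery 0 became 1 with the covariate. From 2 to 4 weeks 0 became 8 with only the groups compared, 1 with a minimum of 10 normalized counts in 6 mice, 1 with quantile normalization, 1 with DESeq2, 1 over 42 mice, 2 with the covariate (3 over 42 mice), and 0 to 2 without 1 mouse. Between 4 weeks of bleomycin and 6 weeks of recovery 0 became 3 with only the groups compared and 8 with the covariate (8 over 42 mice). The relations with the hair keratin score that passed by r in saline mice fell from 8 to 5 with a pseudocount of 0.1 and to 2 over 42 mice. Where no value above shows the cause, the cause was not tested.

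The covariate reversed signs. At 2 weeks the log2 fold changes became 1.56 for Tyr, 1.04 for Tyrp1, 0.69 for Dct, 0.97 for Pmel, 0.66 for Mlana, 0.09 for Slc45a2, 1.14 for Oca2 and 0.09 for Mc1r. Over 42 mice they were 1.55, 1.16, 0.73, 1.00, 0.63, 0.12 and 1.16, Mc1r aside. At 4 weeks Tyr, Tyrp1, Pmel, Mlana and Oca2 became 2.25, 1.99, 2.12, 1.78 and 2.08, and 2.25, 1.97, 2.11, 1.78 and 2.08 over 42 mice.

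Replicate numbers are shared between groups, but the mice are different animals. Deviations of mice with the same number had a median r of -0.00, and 18 of 78 pairs were over 0.1. For mice with other numbers the median r was -0.00, and 167 of 690 pairs were over 0.1. With the replicate number as a block, 2 members were called at 6 weeks of recovery and the counts of the other comparisons did not change by over 1.5 times. Rescaling moved the median of all genes by at most 0.02. Oca2, Slc45a2 and Mc1r rest on few reads, so their fold changes depend on the pseudocount. At 2 weeks they were -2.78, -2.49 and -2.92 with 0.1 in place of 1.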
